A study of Homo sapiens with 6 samples.

Results

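The 58 genes described here encode the collagens and the enzymes and chaperone that finish them: 44 genes of collagen alpha chains, taken as every row whose symbol has the form COL, a number, A and a number, and 14 named genes of collagen processing (LOX, LOXL1 to LOXL4, PLOD1 to PLOD3, P4HA1 to P4HA3, SERPINH1, PCOLCE and BMP1). They are 58 of the 38900 gene rows of the table. Of them 40 averaged 10 or more normalized counts (read counts scaled for library depth) and were tested, 26 collagens and all 14 processing genes. The rule for members uses gene names only, though they were chosen with earlier results of these data known. The minimum mean for testing uses measured values.

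The samples were cultures of hTERT RPE1, a telomerase-immortalized human cell line from the pigment epithelium of the retina. All were held at full confluency for 5 days so that they stopped dividing, and then received fresh medium for 6 hours, with 0.1% DMSO in the control group and 100 nM combretastatin A4 (CA4) in the treated group. CA4 binds tubulin and disassembles microtubules, so the comparison asks how transcripts respond to microtubule loss outside the cell cycle. Each group had 3 libraries of polyA RNA, and the labels do not say whether they came from separate cultures, so p-values measure only the spread between these samples. It is a single cell line.

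Collagens are proteins of long repeats whose helical stretches are wound from trimers of alpha chains, and most are secreted, while a few span the cell membrane. The chains of secreted collagens are hydroxylated on proline and lysine in the endoplasmic reticulum, folded with the help of a collagen-specific chaperone, exported in large COPII carriers, trimmed of their propeptides by a procollagen proteinase and cross-linked outside the cell by lysyl oxidases. In the eye, the pigment epithelium lays down part of the basement membrane that separates it from the choroid, in which type IV collagens are a main component.

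None of the 40 tested members passed the main test, which took the samples as unpaired, with 0 higher and 0 lower in CA4. The threshold was a Benjamini-Hochberg adjusted p of 0.05 in limma, a linear model with a spread shared across genes, over 13928 genes. Among all tested genes 4.94% passed, 2.97% higher and 1.97% lower. At an unadjusted p of at most 0.05 there were 4 members, COL4A1 and LOX with higher and COL14A1 and COL16A1 with lower values in CA4, or 10% of the members against 23% of all tested genes (11.9% higher and 11% lower). On reads recovered from the deposited values, edgeR called 0 members, with 4.62% of all genes called, and DESeq2 called 1, COL16A1, with 12.3%. With replicate number as a block, a pairing that the labels do not state, limma called 7 members, with 17.2% of all tested genes called. COL4A1 and LOX were higher, and COL1A1, COL4A4, COL4A5, COL14A1 and COL16A1 lower. The 3 CA4 libraries lay wholly above the 3 DMSO libraries in 2 members, LOX and PLOD3, and wholly below in 3, COL14A1, COL16A1 and P4HA3, against 14.3% and 13.4% of all tested genes. The fitted change was above 0 in 20 of 40 members and in 48.9% of all tested genes. The median log2 fold change, CA4 minus DMSO on the scale log2(normalized count + 1), was -0.0056 over the members, -0.13 over the 26 collagens and 0.019 over the 14 processing genes, and -0.0082 over all tested genes. The sign of the fitted change turned under at least 1 of 3 other scalings in 11 members, COL1A2, COL4A2, COL8A1, COL12A1, P4HA1, P4HA2, PLOD2, SERPINH1, BMP1, LOXL2 and LOXL3. In bulk RNA a lower level per cell and fewer cells with the transcript cannot be told apart.

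**Figure D1:**
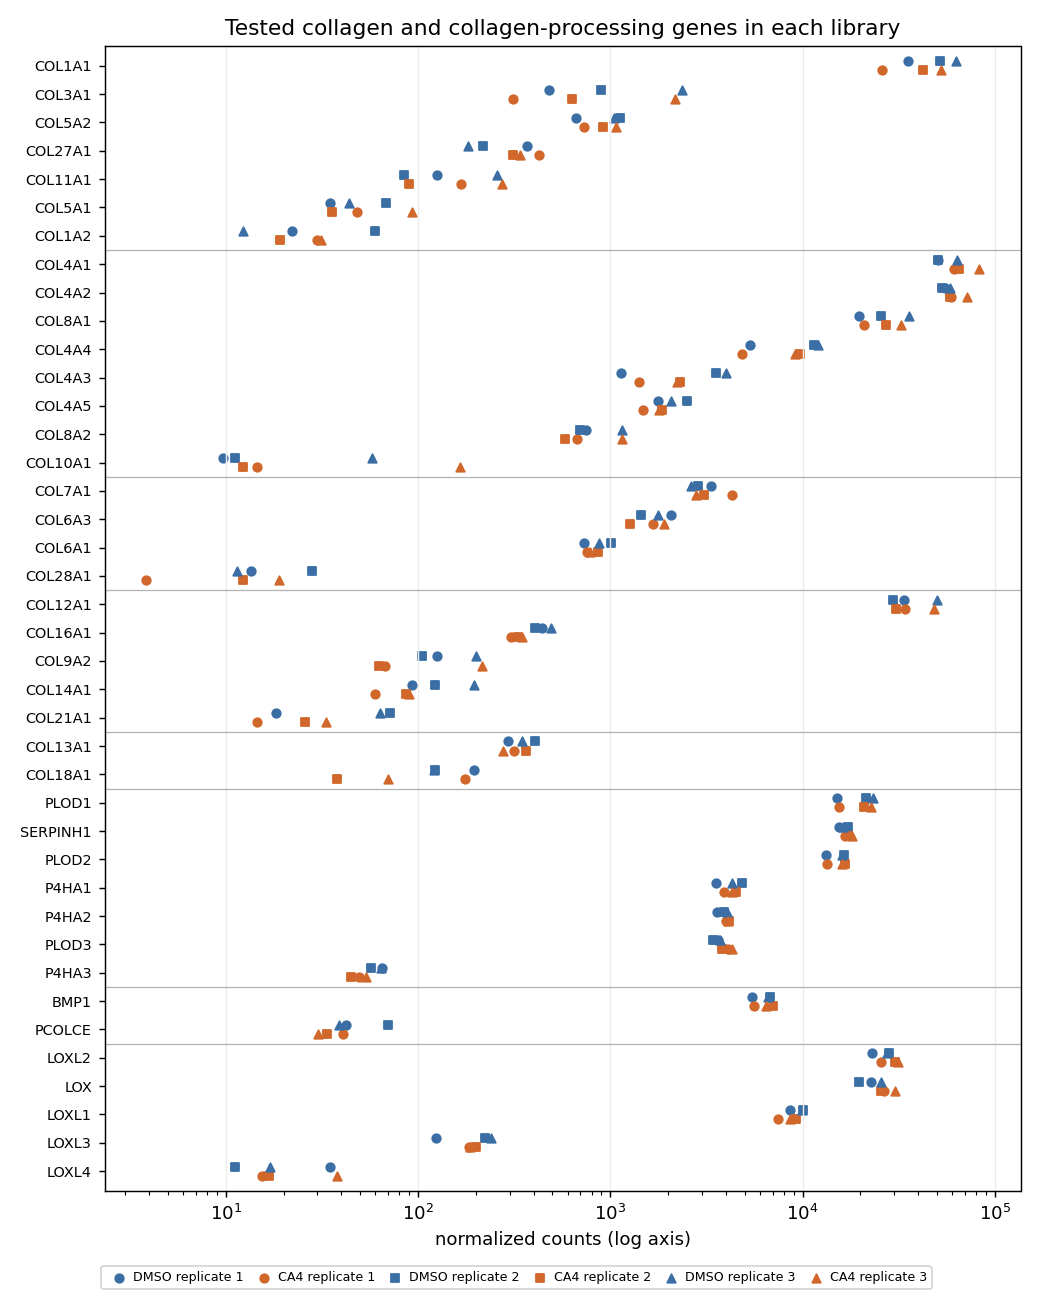
Normalized counts (log axis) of the 40 tested members in each of the 6 libraries, DMSO in blue and CA4 in orange, with a marker shape for each replicate number; lines part the role groups. The colours overlap in 35 members, and the levels run from 3.87 in COL28A1 to 82572 normalized counts in COL4A1.

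Depth was even, from 19524936 to 22538004 recovered reads per library, so 1 read was worth 0.935 to 1.12 normalized counts. Scaling all libraries to the same total of normalized counts shifted the median over all tested genes by -0.10 on the log2 scale. Of 13 markers of retinal pigment epithelium, KRT8 and KRT18 held most of the summed level and MITF and OTX2 were present, while the pigment gene DCT was at 0 in all 6 libraries and TYR, TYRP1 and RLBP1 stayed at or under 5.70 normalized counts. That list, with 9 of 13 at a mean of at least 10, summed to 24203 to 26621 normalized counts in DMSO and 27044 to 32210 in CA4. Within it, KRT18 had 10397, 8943 and 8393 normalized counts in DMSO and 12442, 11056 and 14918 in CA4, higher in every CA4 library. OTX2 had 423, 630.1 and 547 normalized counts in DMSO and 226, 255 and 251 in CA4, and RPE65 had 21.2, 20.6 and 40.8 normalized counts in DMSO and 15.5, 13.5 and 18.9 in CA4, both lower in every CA4 library. MITF had 620.0, 1085 and 951 normalized counts in DMSO and 322, 647 and 402 in CA4, with overlapping groups, and the part of such markers in the members' values was not tested. Of 12 matched markers of other cell types, 3 had a mean of at least 10, the endothelial genes PECAM1, VWF and CDH5. Their list summed to 991 to 1462 normalized counts in DMSO and 1325 to 3256 in CA4, the highest sum in CA4 replicate 3, with CD3E and HBB at 0 in all libraries.

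The fibrillar collagens build the banded fibrils of connective tissue, and 7 of their 11 genes were tested. COL1A1 (ENSG00000108821, chr17:50183289-50201632, minus strand in GENCODE 29 on GRCh38), the alpha-1 chain of type I collagen, had 35304, 51918 and 62433 normalized counts in DMSO and 25922, 42205 and 52315 in CA4 in the order of replicates 1, 2 and 3, an order kept below. The groups overlapped, and replicate 1 was the lowest library in both. Its log2 fold change of -0.33 (SE 0.29, 95% interval -1.01 to 0.34, limma adjusted p = 0.541) was smaller than the SD left within groups, 0.47. It was -0.047 without CA4 replicate 1 and -0.56 without DMSO replicate 1. Within each replicate number the CA4 library was the lower one. With replicate number as a block the limma adjusted p was 0.0120, in a fit that called 17.2% of all tested genes. COL1A2 (chr7:94394561-94431232, plus strand), the alpha-2 chain that joins the alpha-1 chain in most type I collagen, had only 22.2, 59.8 and 12.3 normalized counts in DMSO and 29.96, 19.1 and 31.2 in CA4. The groups overlapped here too, with DMSO replicate 2 the highest and DMSO replicate 3 the lowest library.

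Set per kilobase of transcript (length of the GENCODE 29 transcript with the longest coding sequence), COL1A1 stood at 7416 ± 2033 normalized counts in DMSO and 5968 ± 1979.5 in CA4, and COL1A2 at 5.81 ± 4.63 and 4.94 ± 1.23 (SD, n = 3 each). The ratio of the pair ran from 696 to 4068 over the 6 libraries, so in both groups the deposited values hold abundant transcripts of the alpha-1 chain with almost none of its usual partner. Whether the near-0 values of COL1A2, and of COL4A6 and COL6A2 below, come from the cells or from the quantification was not tested. By this measure COL1A1 ranked 168 and COL1A2 12557 among 13115 tested genes with a length.

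COL3A1, the chain of type III collagen in skin and vessels, varied widely between libraries, with 483, 898 and 2361 normalized counts in DMSO and 311, 636 and 2169 in CA4. In both groups replicate 1 was lowest and replicate 3 highest, and the log2 fold change of -0.42 had a 95% interval of -2.21 to 1.38. COL27A1 had the largest fitted difference of this role group. Its values were 368, 217 and 181 normalized counts in DMSO and 424, 311 and 339.9 in CA4, and the groups overlapped because DMSO replicate 1 lay above CA4 replicates 2 and 3. The log2 fold change of 0.54 (SE 0.27, 95% interval -0.077 to 1.16, limma adjusted p = 0.276) missed the threshold, and without DMSO replicate 1 it was 0.84 with an adjusted p of 0.0449 in limma, in a fit that called 7.14% of all tested genes. Without DMSO replicate 3 it was 0.33 with an adjusted p of 0.556. COL5A1 and COL5A2, chains of the type V collagen that nucleates fibrils, and COL11A1, a chain of the related type XI, had log2 fold changes of 0.21, -0.040 and 0.20, each with groups that overlapped. Per kilobase, COL5A2 was 13.7 to 30.5 times COL5A1 over the 6 libraries. The other 4 fibrillar genes, COL2A1, COL5A3, COL11A2 and COL24A1, were below the minimum mean. COL11A2 was listed at 0 in 4 libraries and had 25.6 normalized counts in replicate 3 of DMSO and 15.6 in that of CA4.

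**Figure D2:**
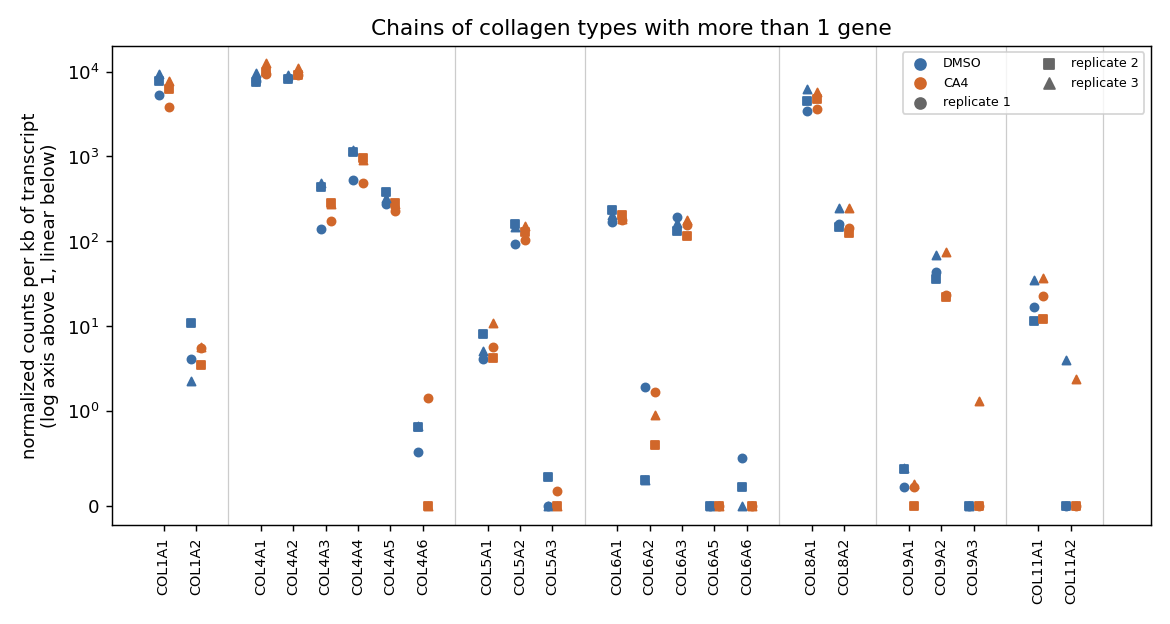
Normalized counts per kilobase of transcript (log axis above 1, linear below) for the chains of collagen types I, IV, V, VI, VIII, IX and XI in each library, DMSO in blue and CA4 in orange. In both groups COL1A2 lies far below COL1A1, COL4A6 below the other type IV chains, and COL6A2, COL6A5 and COL6A6 below COL6A1 and COL6A3, and COL4A1 and COL4A2 lie together.

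The type IV collagens form the sheet of the basement membrane, and their 6 genes sit in the genome as head-to-head pairs. Between the RefSeq starts of a pair lay 126 bases for COL4A1 and COL4A2, 418 for COL4A4 and COL4A3, and 379 for COL4A6 and COL4A5. Stretches of these shared regions are shown because the pairs differ in how alike their levels were. They are from RefSeq on GRCh38.p14, plus strand, 5′ to 3′. Capitals mark a CCAAT box (CCAAT) or a GC box (GGGCGG), searched on both strands, and no stretch overlaps an exon of GENCODE 29 except the first, of which only 30 bases are given.
COL4A1 and COL4A2, chr13:110307167-110307196: gggccgagctccCCAATttgttggcgctgc
COL4A4 and COL4A3, chr2:227164454-227164564: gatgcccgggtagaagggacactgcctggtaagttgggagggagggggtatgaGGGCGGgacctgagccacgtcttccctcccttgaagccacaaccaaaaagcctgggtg
COL4A6 and COL4A5, chrX:108439588-108439837: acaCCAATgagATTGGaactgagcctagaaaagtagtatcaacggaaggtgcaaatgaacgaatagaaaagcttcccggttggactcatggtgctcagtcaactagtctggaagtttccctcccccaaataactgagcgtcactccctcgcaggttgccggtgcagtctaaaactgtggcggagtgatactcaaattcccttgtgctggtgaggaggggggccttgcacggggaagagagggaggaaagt

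In the 126 bases between COL4A1 and COL4A2 the search found 1 CCAAT box and 1 GC box. The same positions of 35116 RefSeq promoter windows held a CCAAT box in 21.1% and a GC box in 34.6%. The COL4A3 stretch held 1 GC box, found in 26.6% of windows at its positions, and no CCAAT box. The COL4A5 stretch held 2 CCAAT boxes, 1 on each strand, where 32% of windows had at least 1, and no GC box. A TATA box (TATAAA) was found in none of the stretches searched, and the share of windows with one was 5.87%, 3.92% and 10.7% in that order. Promoter windows were at hand for 43 of the 58 members.

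COL4A1 (chr13:110148963-110307233, minus strand) encodes the alpha-1 chain of the common basement membrane trimer and was the most abundant member by normalized counts. Its values were 50801, 50349 and 63326 normalized counts in DMSO and 61168, 64782 and 82572 in CA4, so CA4 replicate 1 lay just under DMSO replicate 3 and kept the groups in overlap. The log2 fold change of 0.34 (SE 0.14, 95% interval 0.0020 to 0.67, limma adjusted p = 0.216) missed the threshold. CA4 replicate 3, the highest library, was also highest in the endothelial markers VWF (756, 675 and 509 normalized counts in DMSO and 805, 717 and 1732 in CA4) and PECAM1, whose part in the difference was not tested. Without that library the log2 fold change of COL4A1 was 0.21 with an adjusted p of 0.464 in limma.

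COL4A2 (chr13:110305812-110513209, plus strand), the partner chain, had 55166, 53362 and 58730.2 normalized counts in DMSO and 59202, 58456 and 71416 in CA4. The groups overlapped, and the log2 fold change of 0.17 (SE 0.10, 95% interval -0.070 to 0.41, limma adjusted p = 0.373) was smaller than that of COL4A1, though the difference between them was not tested. Under quantile normalization the fold change of COL4A2 was -0.068. Per kilobase of transcript COL4A1 was 0.904 to 1.13 times COL4A2 over the libraries, and 1.16 to 1.45 times with the merged exons of all coding transcripts as the length, so the order of the pair depends on the length used. Both stood among the highest of the tested genes per kilobase, at ranks 107 and 115.

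COL4A3, COL4A4 and COL4A5 encode the chains of the trimer known from the kidney filter and specialized epithelia. COL4A3 had 1134, 3541 and 3976 normalized counts in DMSO and 1408, 2314 and 2218 in CA4. COL4A4 had 5319, 11456 and 12008 normalized counts in DMSO and 4863, 9717 and 9173 in CA4. In both genes replicate 1 was the lowest library of each group, and the groups overlapped only through DMSO replicate 1. The log2 fold changes were -0.38 (95% interval -1.45 to 0.68, limma adjusted p = 0.67) and -0.25 (95% interval -1.11 to 0.60, limma adjusted p = 0.733). Without DMSO replicate 1, COL4A3 passed the limma threshold at -0.96 with an adjusted p of 0.0489, and without DMSO replicate 3 it was -0.052 with an adjusted p of 0.969. In that fit 2 members passed, COL27A1 and COL4A3, or 1 in each direction, against 7.14% of all tested genes. COL4A5 had 1776, 2501 and 2078 normalized counts in DMSO and 1483, 1858 and 1789 in CA4, with a log2 fold change of -0.30 (SE 0.15, 95% interval -0.64 to 0.036, limma adjusted p = 0.268). DMSO replicate 1 lay below CA4 replicates 2 and 3 and kept its groups in overlap.

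Per kilobase, COL4A3 was 0.264 to 0.41 times COL4A4 in all 6 libraries. COL4A6, which faces COL4A5 across their shared region, had at most 9.66 normalized counts in any library against at least 1483 for COL4A5. The pairs therefore ran from near-equal levels for COL4A1 and COL4A2 to a member close to the floor of 3 reads for COL4A6.

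Of the short-chain network collagens, COL8A1, a chain of the type VIII collagen found in the subendothelial sheet of the cornea and in Bruch's membrane, had 19596, 25623 and 35765 normalized counts in DMSO and 20866, 27261 and 32386 in CA4. Its groups overlapped throughout and the log2 fold change was 0.012 (95% interval -0.54 to 0.56), with a sign that turned under each of the 3 other scalings. COL8A2, its partner chain, was lower per kilobase by 21.4 to 38.5 times and had a log2 fold change of -0.14. COL10A1, a chain known from cartilage that turns to bone, had the largest fitted difference of the network group, from 9.66, 11.2 and 57.9 normalized counts in DMSO and 14.5, 12.3 and 166 in CA4. Replicate 3 stood apart in both groups while the other 4 libraries lay between 9.66 and 14.5 normalized counts. The log2 fold change of 0.72 had a 95% interval of -1.78 to 3.22, and it was -0.46 without CA4 replicate 3.

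Type VI collagen forms beaded filaments from the products of COL6A1, COL6A2 and COL6A3. Per kilobase, COL6A1 stood at 205 ± 33.1 normalized counts in DMSO and COL6A3 at 164 ± 29.2, while COL6A2 stood at 0.833 ± 0.971 (SD, n = 3 each). In CA4 the same quantities were 189 ± 12.8, 150.3 ± 30.6 and 1.1 ± 0.526. COL6A2 never exceeded 6.76 normalized counts in a library and was not tested. The log2 fold changes of COL6A1 and COL6A3 were -0.11 and -0.13, both with overlapping groups. COL7A1, which anchors epithelia to the tissue below, had 3326, 2853 and 2632 normalized counts in DMSO and 4279, 3072 and 2782 in CA4. Replicate 1 was the highest library in both groups, and the groups overlapped, with a log2 fold change of 0.18 (95% interval -0.21 to 0.57). The largest fitted difference of this group was in COL28A1, a low gene with 13.5, 28.05 and 11.4 normalized counts in DMSO and 3.87, 12.3 and 18.9 in CA4 and overlapping groups (log2 fold change -0.67, limma adjusted p = 0.582), and -0.089 without CA4 replicate 1. COL6A5 and COL26A1 were at 0 in all 6 libraries, and COL6A6 had at most 4.83 normalized counts.

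The fibril-associated collagens sit on the surface of fibrils and do not form fibrils themselves. COL12A1 was the most abundant of them, with 33540.4, 29383 and 50024 normalized counts in DMSO and 34159, 30540.2 and 48072 in CA4. Each CA4 library lay among the DMSO libraries, and the log2 fold change of 0.0082 (95% interval -0.53 to 0.55) turned its sign under each of the 3 other scalings. The other 4 tested members of the group all had lower fitted levels in CA4. COL16A1 (chr1:31652247-31704319, minus strand) came nearest to the threshold of all 40 members, with 439, 406 and 494 normalized counts in DMSO and 305, 331 and 347 in CA4. All 3 CA4 libraries lay below all 3 DMSO libraries. The log2 fold change of -0.44 (SE 0.12, 95% interval -0.73 to -0.16, limma adjusted p = 0.0842) missed the threshold in limma and in edgeR (adjusted p = 0.0921) and passed in DESeq2 (adjusted p = 0.0401), where 5.39% of all genes with an adjusted p were called lower. Scaled to the same total, its limma adjusted p was 0.0441, with 3.76% of all tested genes called lower.

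COL14A1 had 92.7, 122 and 196 normalized counts in DMSO and 59.9, 86.4 and 90.3 in CA4, again with all CA4 libraries below all DMSO libraries, the nearest pair being 90.3 and 92.7. The log2 fold change of -0.74 (SE 0.31, 95% interval -1.46 to -0.023, limma adjusted p = 0.205) missed the threshold. COL21A1 had the largest fitted difference of the group, -0.89 on the log2 scale, from 18.3, 71.99 and 63.6 normalized counts in DMSO and 14.5, 25.8 and 33.4 in CA4. DMSO replicate 1 lay below CA4 replicates 2 and 3, and the 95% interval ran from -2.22 to 0.44 (limma adjusted p = 0.401). COL9A2, a chain of cartilage type IX, had 126, 105 and 200.4 normalized counts in DMSO and 67.7, 62.8 and 215 in CA4, with replicate 3 highest in both groups. The 5 other genes of the group, COL9A1, COL9A3, COL19A1, COL20A1 and COL22A1, had means below 10, and COL22A1 was at 0 in all 6 libraries.

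Of the multiplexin and transmembrane collagens, 2 of 6 were tested. COL18A1, the basement membrane chain from which endostatin is cut, had 195, 123 and 121 normalized counts in DMSO and 176, 38.1 and 70.2 in CA4. CA4 replicate 1 lay among the DMSO libraries and the other CA4 libraries below them, for a log2 fold change of -0.86 (SE 0.51, 95% interval -2.06 to 0.33, limma adjusted p = 0.366). It was -0.36 without CA4 replicate 2 and -1.44 without CA4 replicate 1. SLC19A1, on the opposite strand, shares 16.4% of the exon bases of COL18A1 in GENCODE 29, and the use of strand in counting is not given in the sources used here. COL13A1, a transmembrane collagen of cell junctions, had a log2 fold change of -0.13, and its groups overlapped. COL17A1, COL23A1 and COL25A1 had means below 10, with at most 23.6 normalized counts in a library, and COL15A1 was at 0 in all libraries. In all, 18 members were below the minimum mean, 14 of them with at least 1 read. A value of 0 allows up to 3 reads, or 2.8 to 3.37 normalized counts, counting error only.

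Prolyl 4-hydroxylases, which stabilize the helix, have their catalytic subunits from P4HA1, P4HA2 and P4HA3. P4HA1 had 3531, 4843 and 4271 normalized counts in DMSO and 3922, 4496 and 4318 in CA4, and every CA4 library lay within the DMSO range. P4HA2 had 3584, 3907 and 4047 normalized counts in DMSO and 4000.3, 4166 and 4082 in CA4, and its groups overlapped. Their log2 fold changes were 0.020 and 0.088. P4HA3 was far lower and had the largest fitted difference of the enzymes in the endoplasmic reticulum, with 64.7, 57.03 and 64.6 normalized counts in DMSO and 49.3, 44.9 and 53.5 in CA4. Its CA4 libraries all lay below its DMSO libraries, yet the log2 fold change of -0.33 (SE 0.21, 95% interval -0.83 to 0.17, limma adjusted p = 0.408) missed the threshold.

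Lysyl hydroxylases prepare the lysines that later carry sugars and cross-links. PLOD1 had 15061, 21417 and 23248 normalized counts in DMSO and 15398, 20807 and 22682 in CA4. PLOD2 had 13299.7, 16438 and 16043 normalized counts in DMSO and 13374, 16528 and 15999.7 in CA4. In both genes replicate 1 was the lowest library of each group and the groups covered nearly the same range. The log2 fold changes were -0.015 (95% interval -0.48 to 0.44) and 0.0040 (95% interval -0.27 to 0.28). PLOD3, which also adds sugars to hydroxylysine, had 3621, 3411 and 3723 normalized counts in DMSO and 4115, 3797 and 4318 in CA4. All CA4 libraries lay above all DMSO libraries, and the log2 fold change of 0.18 (SE 0.081, 95% interval -0.0042 to 0.37, limma adjusted p = 0.228) missed the threshold. SERPINH1, the collagen chaperone HSP47, had 15400.2, 17204 and 16209 normalized counts in DMSO and 16656, 17187 and 18175 in CA4, with overlapping groups and a log2 fold change of 0.092 (SE 0.078, 95% interval -0.089 to 0.27, limma adjusted p = 0.528).

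BMP1, the main procollagen C-proteinase, had 5469, 6795 and 6635 normalized counts in DMSO and 5609, 7051 and 6466 in CA4 and a log2 fold change of 0.018 (95% interval -0.26 to 0.29). The groups covered nearly the same range. PCOLCE, which enhances that cleavage, was low, with 42.5, 70.1 and 38.9 normalized counts in DMSO and 40.6, 33.7 and 30.1 in CA4. DMSO replicate 2 was the highest library and DMSO replicate 3 lay among the CA4 libraries, for a log2 fold change of -0.49 (SE 0.31, 95% interval -1.21 to 0.24, limma adjusted p = 0.399). The antisense gene PCOLCE-AS1 shares 16.6% of its exon bases.

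The lysyl oxidases start the cross-linking of fibrils. LOX (chr5:122063195-122078360, minus strand) had 22665, 19745 and 25439 normalized counts in DMSO and 26389, 25445 and 30361 in CA4. All CA4 libraries lay above all DMSO libraries, but by only 25445 against 25439 at the nearest pair, and the log2 fold change of 0.28 (SE 0.12, 95% interval 0.0094 to 0.55, limma adjusted p = 0.205) missed the threshold. LOXL2 had 23053, 28229.5 and 27638 normalized counts in DMSO and 25650.4, 30419 and 31201 in CA4, overlapping groups and a log2 fold change of 0.15 (SE 0.11, 95% interval -0.12 to 0.41, limma adjusted p = 0.498). Under quantile normalization its fold change was -0.050. LOXL1, a paralog needed for elastic fibres, went the other way on the fitted scale, with 8595, 10016 and 9948 normalized counts in DMSO and 7462, 9197 and 8565 in CA4 and a log2 fold change of -0.18 (limma adjusted p = 0.353). LOXL3 and LOXL4 were low, with log2 fold changes of 0.016 and 0.18 and overlapping groups. HTRA2, on the opposite strand, shares 14.3% of the exon bases of LOXL3, and the antisense gene LOXL1-AS1 shares 9.21% of those of LOXL1.

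**Figure D3:**
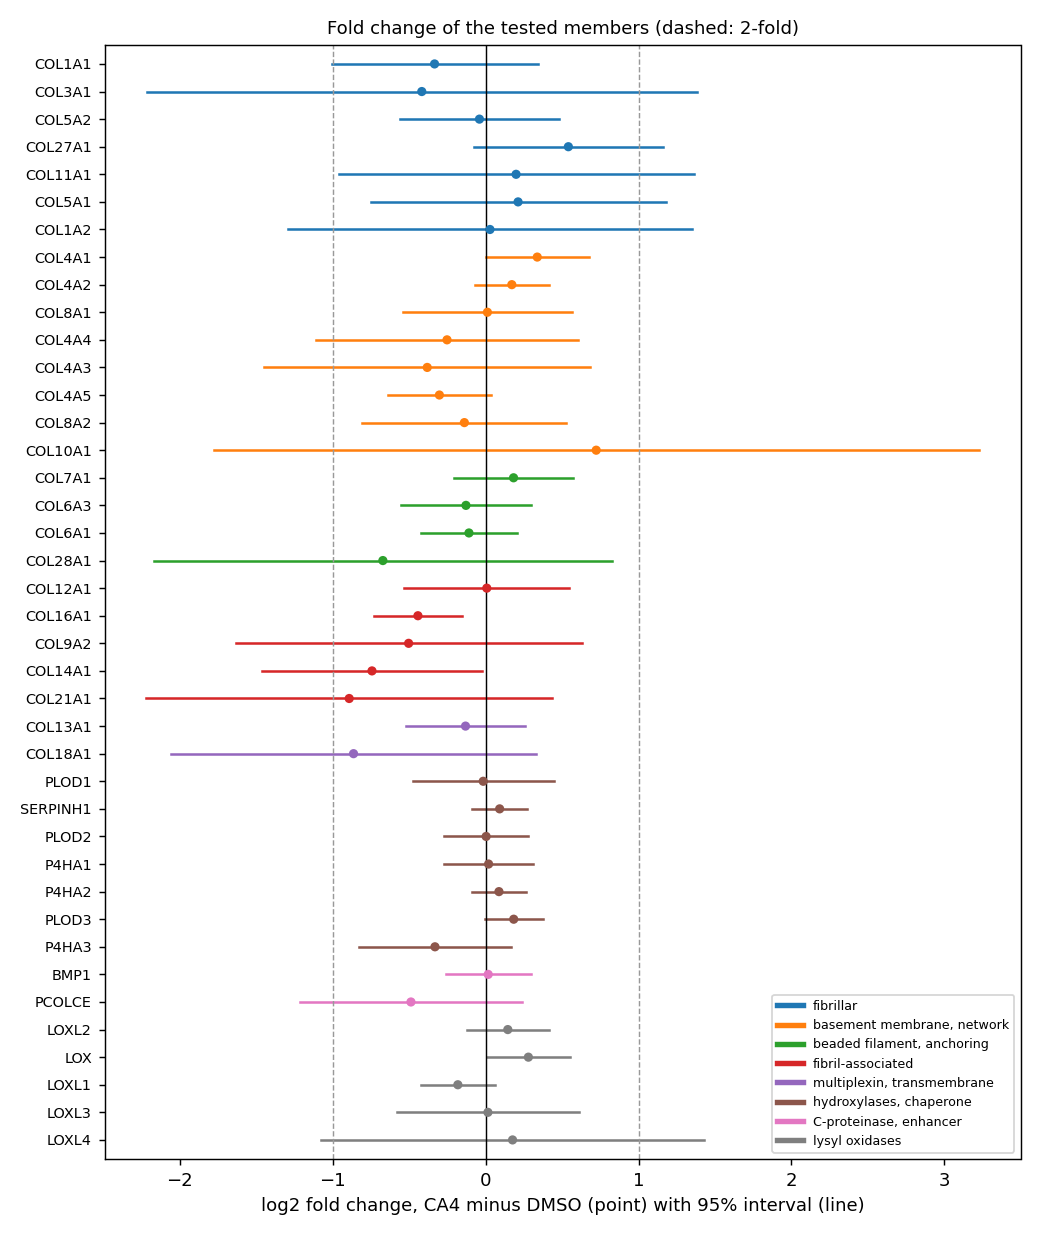
Log2 fold change, CA4 minus DMSO, of the 40 tested members (points) with unadjusted 95% intervals from limma (lines), coloured by role; dashed lines mark 2-fold. Most intervals cross 0, those of the abundant enzymes are short, and those of COL10A1, COL3A1, COL21A1 and COL28A1 are wide.

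These intervals show how closely each change was estimated, not what the test at the adjusted threshold could detect. In 24 of 40 members (60%) the unadjusted 95% interval lay within a 2-fold change either way, and in 18 (45%) within 1.5-fold. For all tested genes the same shares were 71.7% and 45%. None of the 40 changes fitted in limma reached 2-fold, which 5.72% of all tested genes did. In edgeR and DESeq2, COL10A1 (log2 fold change 1.28 and 1.29) and COL21A1 (-1.06 and -1.07) did, and neither was called. The residual SD on the log2 scale, the spread left within groups, had a median of 0.35 over the members and 0.20 over all tested genes, and it ran from 0.067 in P4HA2 to 1.74 in COL10A1. In 25 members (62.5%) the fitted change was smaller than this spread, against 48.3% of all tested genes.

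The spread had a common side. Replicate 1 was the lowest of 3 libraries in both groups in 19 of 40 members (47.5%), among them COL1A1, COL3A1, COL4A3, COL4A4, COL8A1, PLOD1, PLOD2 and LOXL2, and it was the highest in both in 3 (7.5%). Over all tested genes these shares were 20.3% and 19.9%. Replicate 3 was the highest of 3 libraries in both groups in 15 members (37.5%), against 12.7% of all tested genes. The 58 members together took 1.60, 1.81 and 2.10% in DMSO and 1.57, 1.76 and 2.04% in CA4 of all normalized counts. The library with the lowest share was replicate 1 and that with the highest was replicate 3 in both groups, and the groups overlapped throughout. The fibrillar genes took 0.182, 0.266 and 0.319% in DMSO and 0.127, 0.202 and 0.251% in CA4, mostly COL1A1. The basement membrane and network genes took 0.660, 0.721 and 0.850% in DMSO and 0.687, 0.753 and 0.894% in CA4. What set replicates 1 and 3 apart was not tested.

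**Figure D4:**
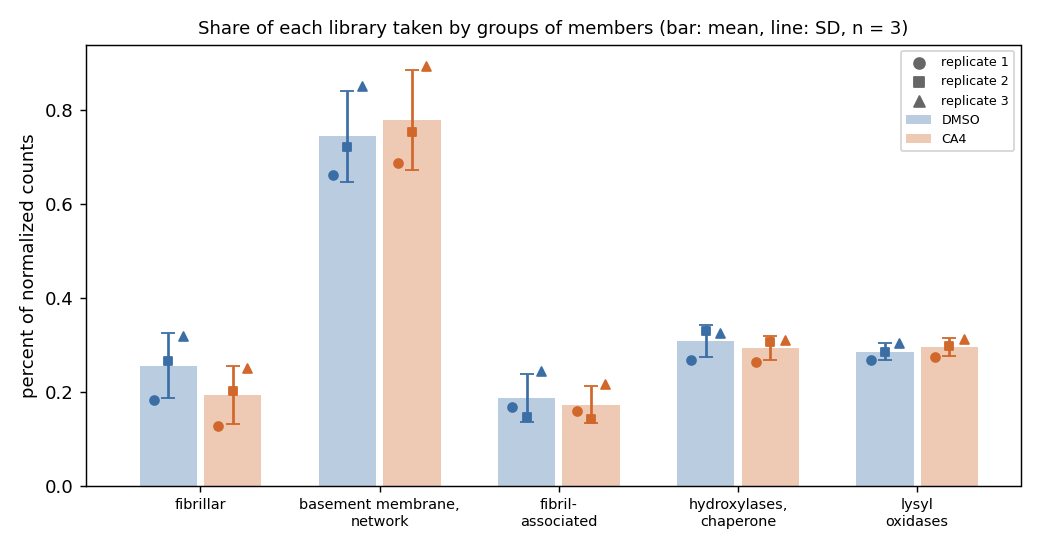
Percent of each library's normalized counts taken by 5 role groups (bars: mean of 3 libraries, lines: SD, points: libraries with a marker per replicate number), DMSO in blue and CA4 in orange. Replicate 1 is lowest and replicate 3 highest in both treatments for the fibrillar, network and lysyl oxidase groups, and the treatments overlap in all 5 groups.

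Around these members, 42 further genes of collagen folding, export, propeptide removal, binding and fibril assembly were listed, of which 41 matched a row and 39 were tested. In limma 2 were higher in CA4 (5.13%) and 0 lower, against 2.97% and 1.97% of all tested genes. At an unadjusted p of at most 0.05 there were 7 higher and 1 lower, against 11.9% and 11% of all tested genes. DESeq2 called 5 higher and 0 lower (6.92% and 5.39% of all genes), and edgeR 2 higher and 0 lower (2.8% and 1.82%). Both calls in limma were genes of the inner COPII coat, which carries procollagen out of the endoplasmic reticulum, in a group of 7 tested export genes. SEC24D, the cargo-binding subunit, rose from 5064, 4928 and 5101 normalized counts in DMSO to 7159, 6498 and 7053 in CA4, with no overlap and a log2 fold change of 0.46 (SE 0.072, 95% interval 0.29 to 0.62, limma adjusted p = 0.0187). SEC23A, its partner in the coat, rose from 4855, 4935 and 4947 to 6098, 6109 and 6039.9, also with no overlap, a log2 fold change of 0.31 (SE 0.064, 95% interval 0.16 to 0.46, limma adjusted p = 0.0413). The call of SEC23A was lost whichever of the 6 libraries was left out (limma adjusted p from 0.0564 to 0.131), and that of SEC24D was kept in 2 of them, those without DMSO replicate 1 and without CA4 replicate 2 (range 0.0263 to 0.0819). SEC23A also lost its call under each of the 3 other scalings (limma adjusted p = 0.111 scaled to the same total) and without the filter, and both calls were lost without the trend. The fits without 1 library called 0.582% to 7.14% of all tested genes, and that without the trend 0.74%, against 4.94% in the main test. SEC24D and SEC23A were called in DESeq2 (adjusted p = 5.2e-06 and 0.00072, 12.3% of all genes). Both were also called with replicate number as a block (limma adjusted p = 0.0039 and 0.0127, 17.2%). The log2 fold change over all 18 alternatives ran from 0.35 to 0.50 for SEC24D and from 0.21 to 0.31 for SEC23A.

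Of the remaining export genes, the small GTPase SAR1B and the cargo receptors MIA3 and MIA2 had log2 fold changes of 0.23, 0.023 and 0.23, and KLHL12 and TRAPPC2 had -0.050 and -0.0028, all short of the threshold. MIA3 and TRAPPC2 changed sign in other settings, with a lowest value of -0.079 for MIA3 and a highest of 0.078 for TRAPPC2. None of the 13 genes of folding and modification passed in limma, where 3 had an unadjusted p of at most 0.05, 2 of them higher, against 23% of all tested genes. In the same group edgeR called 0 and DESeq2 called FKBP14, which had a log2 fold change of 0.37 (limma adjusted p = 0.08). The median log2 fold change of the 13 was 0.082, and P4HB, the shared subunit of the prolyl hydroxylases, stood at 0.082, but at -0.020 scaled to the same total. Of the 8 receptor and uptake genes, 0 passed in limma and the median log2 fold change was 0.088. Groups did not overlap in 3 of them, against 27.7% of all tested genes. An unadjusted limma p of at most 0.05 was found in 2, against 23% of all tested genes. The 2 were DDR2 and ITGA2, which bind fibrillar collagen and had log2 fold changes of 0.48 and 0.50 with no overlap between groups and limma adjusted p-values of 0.114 and 0.0962. DESeq2 called both (adjusted p = 0.0288 and 0.0263), and edgeR neither. Without DMSO replicate 1, ITGA2 passed the limma threshold (adjusted p = 0.0328). Of the other propeptide proteinases 5 were tested, with log2 fold changes from -0.14 in PCOLCE2 to 1.198 in TLL1, and of the proteoglycans and matricellular regulators 6, from -1.54 in TNXB to 0.064 in FMOD. Over all settings TLL1 ran from 0.72 to 1.53 and TNXB from -2.17 to -0.54, and PCOLCE2 and FMOD changed sign. In CA4, TLL1 had 32.9, 10.1 and 13.4 normalized counts and TNXB 4.83, 54.98 and 37.9, so replicate 1 stood apart in both. In limma, edgeR and DESeq2, which gave TLL1 no adjusted p, 0 genes of either group passed, and 0 had an unadjusted limma p of at most 0.05. These names below the threshold were chosen after their values were seen.

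**Figure D5:**
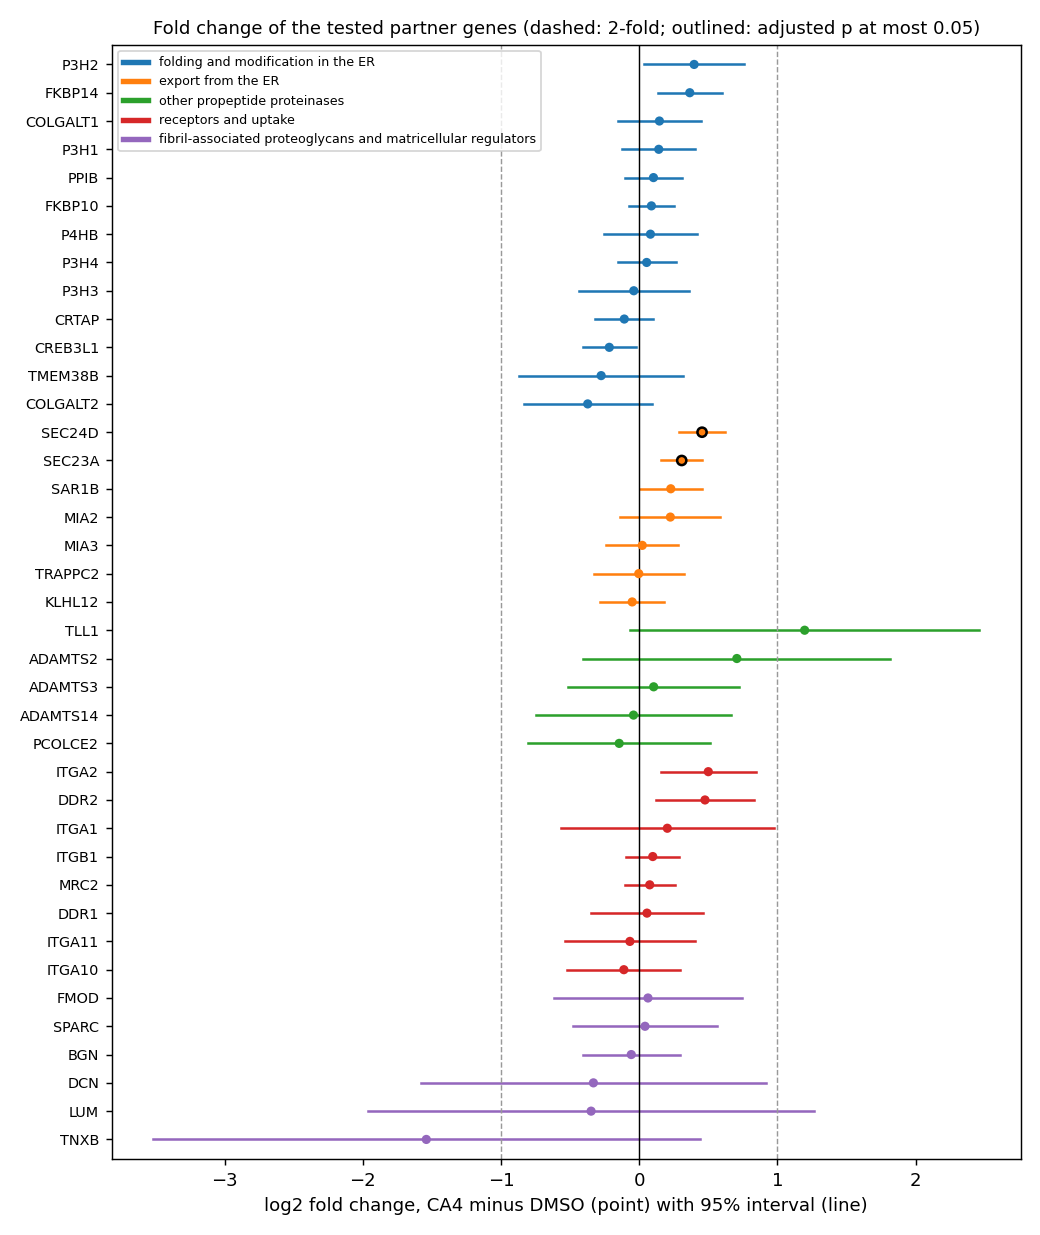
Log2 fold change, CA4 minus DMSO, of the 39 tested partner genes (points) with unadjusted 95% intervals from limma (lines), coloured by step of collagen handling; dashed lines mark 2-fold and a black outline an adjusted p of at most 0.05. SEC24D at 0.46 and SEC23A at 0.31 are outlined.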

How the data were processed

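PolyA RNA of 3 DMSO and 3 CA4 samples was sequenced, and group and replicate number of each library come from its title. The authors deposited 1 table of a per-gene signal, called normalized counts here, with 1 column per library per the file headers. Trim Galore 0.6.6, FastQC 0.12.1, STAR 2.7.9a, Salmon 1.8.0, DESeq2 1.44.0 and the build GRCh38 are named in the submitters' processing notes, with no role or order. The annotation release and use of strand are not given in the sources used here. Each column had 1 step of which 100% of its values were multiples within 0.01, and dividing by it recovered reads, which could be rounded estimates.

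Symbols came from the supplied gene name table. Genes averaging 10 or more were tested as log2(normalized count + 1) with limma 3.58.1 in R 4.3.3 (treatment only, mean trend, two-sided, Benjamini-Hochberg over 13928 genes, threshold 0.05). Intervals are unadjusted. Scripts were tested on simulated data. The members and lists were chosen with earlier results of these data known, so no list has a p of its own. The rule for named genes took every member past the threshold, the 5 with the highest mean, the largest fitted change in each role group, and partner genes past the threshold; all members are accounted for. Alternatives were pseudocounts of 0.1 and 5, no filter, a mean of at least 50, quantile, 75th percentile and total scaling, no trend, a robust prior, edgeR 4.0.16 and DESeq2 1.42.0 on recovered reads (643 and 1613 genes called), replicate number as a block, and each library left out in turn. Lengths and loci are from GENCODE 29.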

Additional observations from a re-analysis of the deposited data

How the results depend on the processing

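The count of members past the threshold stayed at 0 with both pseudocounts, both filters, quantile and 75th percentile scaling, no trend, the robust prior and edgeR. It was 1 (0 higher, 1 lower) with scaling to the same total and in DESeq2, COL16A1 both times. It ran from 0 to 2 without 1 library (0 to 1 higher, 0 to 1 lower), with 2 only without DMSO replicate 1. The count of partner genes, 2 in the main test, was 1 without a filter and under each of the 3 other scalings, 0 without the trend, 5 in DESeq2 and 0 to 2 without 1 library. The share of all genes called moved too, to 2.65% without a filter, 4.37% to 5.76% under the scalings, 0.74% without the trend, 12.3% in DESeq2 and 0.582% to 7.14% without 1 library. With the replicate number as a block, 7 members passed (2 higher, 5 lower: COL4A1 and LOX, and COL1A1, COL4A4, COL4A5, COL14A1 and COL16A1), where 17.2% of all tested genes did, and 6 partner genes. The labels number the replicates alike in both groups but do not say that they are paired. The main test therefore used treatment only, and its count of 0 members holds for samples taken as unpaired. Same-numbered libraries had deviations from their group means correlated at 0.20, 0.16 and 0.059, all above 0, which does not settle the pairing. As a hint from the data, 5 of 6 libraries correlated best with the library of their own number, and CA4 replicate 3 with DMSO replicate 2. The median log2 fold change of the members, -0.0056, ran from -0.12 to -0.0056 with other settings on all 6 libraries and from -0.20 (without DMSO replicate 1) to 0.065 (without CA4 replicate 1) with 1 library left out.

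Of the 40 members, 18 kept the sign of their fitted change in every alternative that gave them a value and 22, none past the threshold, did not. The minimum mean of 50 left 34 members and DESeq2 gave an adjusted p for 39, so 3 of those 18, COL21A1, PCOLCE and COL28A1, were not run in every alternative. The cause was not tested. Under quantile normalization it turned for P4HA2 (-0.025), COL12A1 (-0.16), P4HA1 (-0.080), LOXL2 (-0.050), COL4A2 (-0.068), COL8A1 (-0.15), SERPINH1 (-0.075), PLOD2 (-0.16) and BMP1 (-0.078). Under 75th percentile scaling it turned for COL12A1 (-0.024), LOXL3 (-0.017), P4HA1 (-0.013), COL8A1 (-0.020), PLOD2 (-0.029), COL1A2 (-0.0023) and BMP1 (-0.015). Under scaling to the same total it turned for P4HA2 (-0.014), COL12A1 (-0.093), LOXL3 (-0.085), P4HA1 (-0.081), COL8A1 (-0.089), SERPINH1 (-0.0091), PLOD2 (-0.097), COL1A2 (-0.068) and BMP1 (-0.084). Under edgeR it turned for COL12A1 (-0.00077), LOXL3 (-0.041), COL8A1 (-0.0072) and COL1A2 (-0.23). Under DESeq2 it turned for COL12A1 (-0.0031), LOXL3 (-0.044), COL8A1 (-0.0097) and COL1A2 (-0.24). Under a pseudocount of 5 it turned for COL1A2 (-0.0020). Leaving out 1 library gave log2 ranges of -0.081 to 0.11 for BMP1, -0.46 to 1.51 for COL10A1, -0.19 to 0.64 for COL11A1, -0.18 to 0.23 for COL12A1, -0.47 to 0.63 for COL1A2, -1.18 to 0.22 for COL3A1, -0.63 to 0.067 for COL4A4, -0.17 to 0.51 for COL5A1, -0.28 to 0.11 for COL5A2, -0.23 to 0.0032 for COL6A1, -0.26 to 0.041 for COL6A3, -0.20 to 0.24 for COL8A1, -0.43 to 0.084 for COL8A2, -0.28 to 0.19 for LOXL3, -0.22 to 0.60 for LOXL4, -0.10 to 0.13 for P4HA1, -0.20 to 0.15 for PLOD1 and -0.092 to 0.098 for PLOD2. For the members whose sign held in these 6 fits, the ranges were -0.25 to -0.019 for COL13A1, -0.99 to -0.45 for COL14A1, -0.51 to -0.37 for COL16A1, -1.44 to -0.36 for COL18A1, -0.56 to -0.047 for COL1A1, -1.50 to -0.54 for COL21A1, 0.33 to 0.84 for COL27A1, -1.11 to -0.089 for COL28A1, 0.21 to 0.45 for COL4A1, 0.079 to 0.22 for COL4A2, -0.96 to -0.052 for COL4A3, -0.42 to -0.17 for COL4A5, 7.2e-05 to 0.31 for COL7A1, -1.07 to -0.19 for COL9A2, 0.19 to 0.37 for LOX, -0.25 to -0.097 for LOXL1, 0.053 to 0.23 for LOXL2, 0.038 to 0.13 for P4HA2, -0.39 to -0.27 for P4HA3, -0.65 to -0.23 for PCOLCE, 0.14 to 0.23 for PLOD3 and 0.053 to 0.13 for SERPINH1. With 1 read near 1 normalized count, depth limits what can be seen in the 18 members below the minimum mean, which were not tested.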
